A study of Homo sapiens with 2 samples.

Results

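The 48 genes described here encode the effector proteins that cells make when an interferon reaches them. They were taken from a given list of gene symbols, and every one of the 48 has a value among the 19775 genes measured. Their levels were compared between IGR37, a human melanoma line grown from a lymph node metastasis, and IGR39, a line from the primary skin tumour, which the labels call achromic. The lines are known to come from the same patient. Cells of both were cultured in DMEM with serum, with no treatment named in the labels, and each was measured on 1 Affymetrix Human Genome U133 Plus 2.0 array. The series concerns a switch of phenotype in melanoma, and the comparison shows how a metastasis line differs from a primary tumour line. It holds 1 culture of each, so a difference between these lines is not a difference between metastases and primary tumours in general. Breast lines named in the design text were not analysed here.

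Interferons bind receptors on the cell surface, and JAK kinases then activate STAT proteins, which enter the nucleus with IRF9. There they bind a sequence called the interferon-stimulated response element in the promoters of target genes. The products of these genes block viral entry, translation, replication and release, and many act at a low constant level in cells that have met no virus. In melanoma, as in other tumours, the activity of this gene programme is known to vary between cell lines.

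Levels are log2 values per gene made by the authors with RMA, and a difference is the log2 level in IGR37 minus that in IGR39, so that -1 is a 2-fold lower level. Neither line has a replicate, so no test was run, and having so few arrays limits the precision. Below, lower and higher are written of differences of at least 2-fold. Levels under log2 6 lie in the lower part of the scale, where most genes sit and where RMA compresses differences; at or above it were 39.2% of all genes in IGR37 and 38.9% in IGR39. Hybridisation spike-ins, which are added at known amounts, differed between the arrays by -0.14 to 0.21, and poly-A spike-ins by -0.47 to 0.68. Among probe sets that reached log2 6 in the brighter line, those of the same gene gave differences with a pooled SD of 0.40. All 7 measured melanocyte lineage markers were at 8.38 or higher in IGR37, while in IGR39 MITF alone reached log2 6, at 7.57, and the others lay between 3.15 and 4.29. By these markers the melanocyte lineage is thus not seen in IGR39 beyond MITF, and whether this has a part in the effector levels was not tested. None of 19 leukocyte markers reached log2 6 in either line, with highest values of 5.2 in IGR37 and 5.27 in IGR39. Of 13 fibroblast and endothelial markers, 3 reached log2 6 in IGR37 and 1 in IGR39. FAP was lower in IGR37, at 6.83 in IGR37 and 8.85 in IGR39, LUM was higher, at 6.26 in IGR37 and 3.41 in IGR39, and the part of these markers in the effector levels was not tested. The 24 housekeeping genes had a median difference of 0.12. RNA came from whole cultures, in which fewer cells that express a gene and less RNA per cell cannot be told apart.

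Most of these effector genes were lower in IGR37. Of the 48 members, 27 (56.2%) were lower by this limit, beside 4.85% of all genes, and 2 (4.17%) were higher, beside 5.8% of all genes. The other 19 members lay within 2-fold. The members' median difference was -1.68, beside a median of 0.00 over all genes. At the 4-fold limit, 20 members were lower, beside 1.85% of all genes, and 1 was higher, beside 1.68%. Of the 39 members whose mean over both lines reached log2 5, a limit that a high level in 1 line can meet, 22 were lower, beside 7.88% of the genes at that level, and 2 were higher, beside 9.55%.

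**Figure D1:**
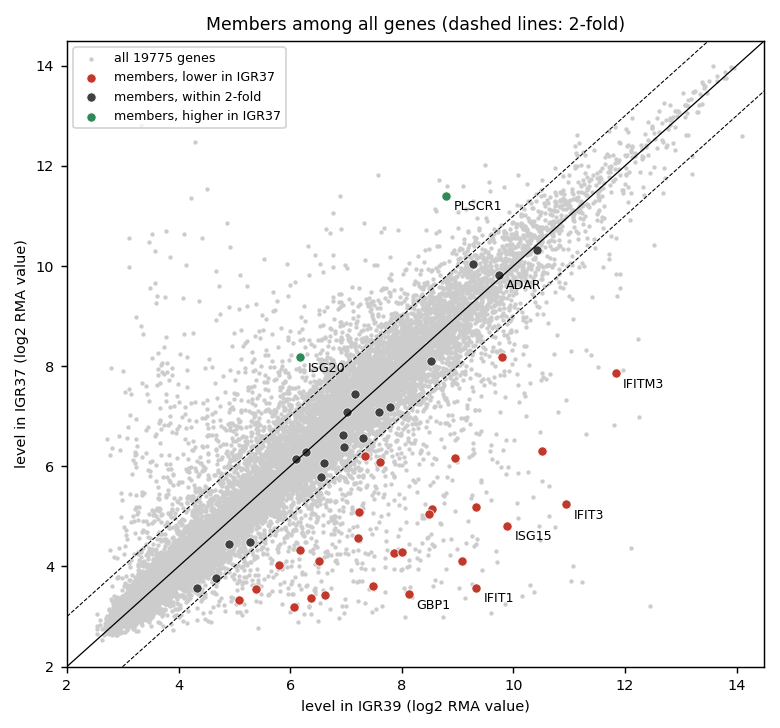
Level in IGR37 (vertical axis) against level in IGR39 (horizontal axis), both as log2 RMA values from 1 array per line, for all 19775 genes (grey) and the 48 members (coloured by their difference). The solid line marks equal levels and the dashed lines 2-fold; 27 members lie below the lower dashed line, with IFIT1, IFIT3 and ISG15 among the farthest, and PLSCR1 and ISG20 above the upper one.

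The members did not form 1 block but a range of differences, from -5.76 to 2.61. Those at log2 6 or above numbered 22 in IGR37 and 41 in IGR39. In 21 of the 27 lower members the IGR37 level was under log2 6, so the size of these differences rests on a level near the bottom of the scale. In the remaining 6 lower members, UBE2L6, MX1, GBP3, IFITM2, IFITM3 and PARP9, the gene was above log2 6 in both lines. Of the 19 members within 2-fold, 14 were above log2 6 in both lines, so that a level near background does not describe most of them. Another 4, OAS1, GBP2, HELZ2 and IFI27, were under it in both, and USP18 lay on either side of it.

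**Figure D2:**
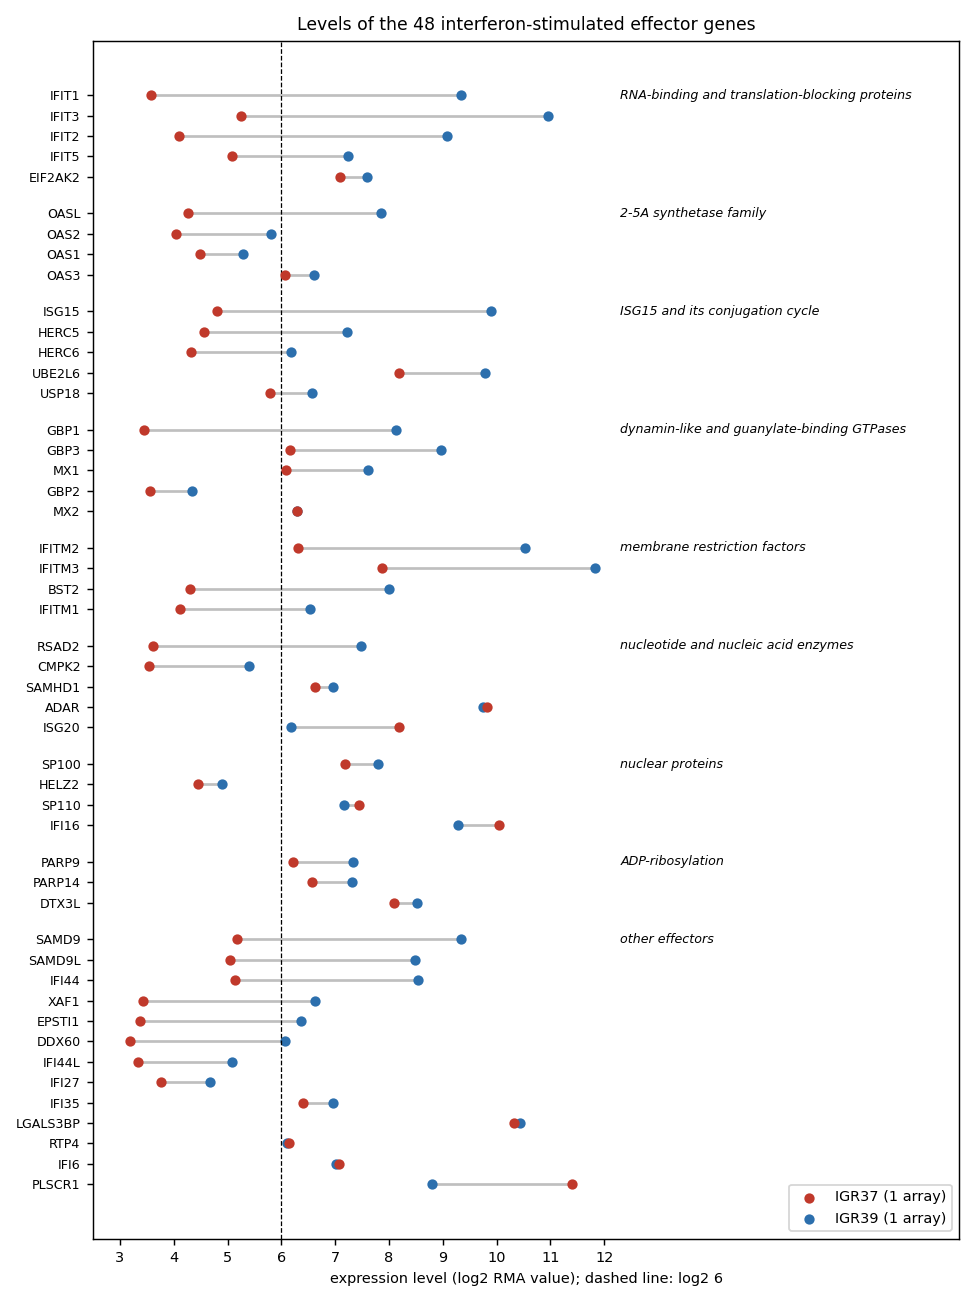
Level of each member in IGR37 (red) and IGR39 (blue), in log2 RMA values on the horizontal axis, with 1 array per line and members grouped by role. Long grey bars with red on the left are members lower in IGR37; all 4 nuclear proteins have short bars, and ISG20 and PLSCR1 have red on the right.

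Among RNA-binding proteins that block translation, 4 of 5 were lower in IGR37, with a median difference of -4.98. The IFIT proteins bind RNA, and IFIT1 recognises messenger RNA whose cap lacks a methyl group that host RNA carries. IFIT1 was at 3.58 in IGR37 and 9.34 in IGR39, a 54.1-fold lower level. IFIT3, a partner that stabilises IFIT1, was at 5.24 in IGR37 and 10.95 in IGR39. For IFIT2, which joins them in a complex, the levels were 4.10 in IGR37 and 9.08 in IGR39. By the brightest probe set of each, these 3 genes were lower by at least 31.5-fold. The second probe sets of IFIT2 and IFIT3 gave smaller differences, of -2.53 and -3.54. The 3 genes lie in 1 cluster on chromosome 10. IFIT5 follows them there and differed less, at 5.08 in IGR37 and 7.23 in IGR39. EIF2AK2, the kinase PKR that halts translation on sensing double-stranded RNA, was expressed in both lines, at 7.09 in IGR37 and 7.60 in IGR39, and was the group's member within 2-fold.

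OAS enzymes make 2-5A, a messenger that switches on the nuclease RNase L, and 2 of the 4 family genes were lower. OASL, a relative without that enzyme activity that supports RNA sensing, was at 4.27 in IGR37 and 7.86 in IGR39, a difference of -3.59. OAS2 was under log2 6 in both lines, at 4.03 in IGR37 and 5.80 in IGR39. OAS1 and OAS3 lay within 2-fold, with differences of -0.80 and -0.55. OAS3 was just above log2 6, at 6.06 in IGR37 and 6.61 in IGR39, and OAS1 was at 4.49 in IGR37 and 5.29 in IGR39. The family thus divided between a relative that was clearly lower and enzymes with small differences or low levels.

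ISG15 is a ubiquitin-like protein that is attached to other proteins, and 4 of the 5 genes grouped here with it were lower. The gene for ISG15 itself was at 4.81 in IGR37 and 9.89 in IGR39, a 33.8-fold lower level. That value rests on 1 probe set, of the _s_at kind, which can match several transcripts. HERC5, the main ligase that attaches it to new proteins, was at 4.57 in IGR37 and 7.22 in IGR39, and HERC6, a related ligase gene, was at 4.32 in IGR37 and 6.18 in IGR39. UBE2L6, the conjugating enzyme, was lower by 1.60 on the log2 scale yet well expressed in both lines, at 8.19 in IGR37 and 9.79 in IGR39. USP18, which removes ISG15 and also damps the interferon receptor, lay within 2-fold, at 5.79 in IGR37 and 6.56 in IGR39. In ISG15, HERC5 and HERC6 the IGR37 level was under log2 6.

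Of the 5 antiviral GTPases, 3 were lower and 2 lay within 2-fold, and relatives differed from each other. GBP1, a guanylate-binding protein that coats invading microbes, was at 3.44 in IGR37 and 8.13 in IGR39, a 25.8-fold lower level. That value is from an _s_at probe set, which can match several transcripts, and the GBP1 difference was -2.61 as a mean over its 4 probe sets and -1.51 without the _x_at and _s_at ones. GBP3 was at 6.16 in IGR37 and 8.96 in IGR39, while GBP2, at 3.56 in IGR37 and 4.33 in IGR39, was at a low level in both. MX1, a dynamin-like barrier to influenza virus, was at 6.09 in IGR37 and 7.60 in IGR39. MX2, its neighbour and a barrier to HIV, had the same value of 6.29 in IGR37 and in IGR39. Exactly equal values occurred in 214 of the 54675 probe sets.

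All 4 membrane restriction factors were at least 4-fold lower, with a median difference of -3.84. IFITM proteins sit in cell and endosome membranes and hinder the fusion of viruses. IFITM3 was at 7.86 in IGR37 and 11.83 in IGR39, and IFITM2 was at 6.30 in IGR37 and 10.52 in IGR39. IFITM1 was at 4.11 in IGR37 and 6.53 in IGR39. IFITM genes are near-identical in sequence, and the probe sets used for IFITM2 and IFITM3 are marked by Affymetrix as able to cross-hybridise, so the 3 values may share signal. BST2, tetherin, which holds budding virus at the cell surface, was at 4.30 in IGR37 and 8.0 in IGR39.

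Enzymes that act on nucleotides and nucleic acids split into lower, alike and higher genes. RSAD2, viperin, which makes a nucleotide that stops viral polymerases, was at 3.61 in IGR37 and 7.49 in IGR39. CMPK2, a nucleotide kinase encoded beside it, was at 3.55 in IGR37 and 5.39 in IGR39. Both were lower. ISG20, an RNA exonuclease, was higher in IGR37, at 8.18 in IGR37 and 6.18 in IGR39, a difference of 2.00 that its other probe set nearly matched, at 7.71 in IGR37 and 5.76 in IGR39. SAMHD1, which depletes the building blocks of DNA, was at 6.62 in IGR37 and 6.95 in IGR39. ADAR, which edits adenosines in double-stranded RNA, was at 9.82 in IGR37 and 9.74 in IGR39. SAMHD1 and ADAR lay within 2-fold.

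None of the 4 members grouped here as nuclear proteins passed the 2-fold limit. The grouping was made with earlier results of these data known, and members in other groups can act in the nucleus too. IFI16, a sensor of DNA, was at 10.05 in IGR37 and 9.28 in IGR39. SP100, a component of nuclear bodies, was at 7.19 in IGR37 and 7.79 in IGR39, and SP110, its relative, was at 7.45 in IGR37 and 7.17 in IGR39. All 3 were expressed in both lines, with differences of either sign by their brightest probe sets. For SP110 the sign varied, as 2 of its 5 probe sets gave a positive difference and the mean over all of them was -0.09. HELZ2, a helicase that acts as a nuclear coactivator, was low, at 4.45 in IGR37 and 4.90 in IGR39. For ADP-ribosylation, 1 of 3 genes passed the limit. PARP9 was at 6.21 in IGR37 and 7.34 in IGR39, its partner DTX3L, a ubiquitin ligase, was at 8.10 in IGR37 and 8.52 in IGR39, and PARP14 was at 6.56 in IGR37 and 7.30 in IGR39. The other probe set of PARP9 was at 5.02 in IGR37 and 4.97 in IGR39.

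The remaining 13 effectors held 7 genes lower, 1 higher and 5 within 2-fold. SAMD9, a growth-restraining host factor against poxviruses, was at 5.18 in IGR37 and 9.33 in IGR39, and the adjacent SAMD9L was at 5.04 in IGR37 and 8.49 in IGR39. IFI44 was at 5.14 in IGR37 and 8.54 in IGR39, and IFI44L, its neighbour, was at 3.33 in IGR37 and 5.09 in IGR39. XAF1, which antagonises an inhibitor of apoptosis, was at 3.43 in IGR37 and 6.62 in IGR39. All of these were lower in IGR37, and in each the IGR37 level was under log2 6. EPSTI1 was at 3.38 in IGR37 and 6.37 in IGR39, and DDX60, a helicase, was at 3.18 in IGR37 and 6.07 in IGR39, which completes the lower genes.

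PLSCR1, a phospholipid scramblase that limits viral entry, ran the other way. It was at 11.41 in IGR37 and 8.80 in IGR39, a 6.11-fold higher level, and its other probe set above log2 6 gave 8.61 in IGR37 and 6.03 in IGR39. Both are of the _s_at kind, which can match several transcripts, and without such probe sets a dim one leaves a difference of 0.06. With ISG20 it was the member higher in IGR37. Several further genes hardly differed at substantial levels. LGALS3BP, a secreted glycoprotein, was at 10.33 in IGR37 and 10.43 in IGR39. IFI6, a membrane protein that protects against flaviviruses, was at 7.08 in IGR37 and 7.02 in IGR39. RTP4 was at 6.15 in IGR37 and 6.10 in IGR39. These 3 genes differed by at most 0.10 in size. IFI35 was at 6.39 in IGR37 and 6.96 in IGR39, and IFI27, often among the strongest interferon targets, was low in both lines, at 3.77 in IGR37 and 4.67 in IGR39.

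The promoters were read for the core of the interferon-stimulated response element. RefSeq promoters on GRCh38.p14 run from 250 bases before to 50 after each start site, and 41 of the 48 members had at least 1 such window. The core searched was GAAANNGAAA on either strand, and a gene counted where any of its windows held it. It was present in 28 of the 41 members (68.3%), against 3.98% of the 15384 genes with a window and a value, and in 3.57% of all 35116 windows. By call, the core was present in 18 of 23 lower members (78.3%), in 8 of 16 members within 2-fold and in both higher members. At least 2 cores in a window were present in 14 members, of which 10 were lower, against 0.332% of all genes. The core of the gamma-activated site, TTCNNNGAA, which reads the same on either strand, was present in 12 of the 41 members (29.3%) and in 8.97% of all genes. A match describes the letters in the window and is not evidence that a factor binds there.

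The following 5 promoters show that members with opposite behaviour carry the same core, with each GAAANNGAAA core or its reverse complement in capitals and the sequence written 5′ to 3′ along the gene's strand. IFIT1 and ISG15 were among the members with the largest negative differences, IFI6 lay within 2-fold, and ISG20 and PLSCR1 were higher in IGR37.
IFIT1, chr10:89392373-89392672, plus strand: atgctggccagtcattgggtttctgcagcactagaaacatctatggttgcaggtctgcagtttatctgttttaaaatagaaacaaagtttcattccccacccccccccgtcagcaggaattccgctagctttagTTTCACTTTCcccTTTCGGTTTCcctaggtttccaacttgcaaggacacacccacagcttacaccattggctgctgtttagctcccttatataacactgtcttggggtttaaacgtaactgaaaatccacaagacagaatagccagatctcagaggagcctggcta
ISG15, chr1:1013247-1013546, plus strand: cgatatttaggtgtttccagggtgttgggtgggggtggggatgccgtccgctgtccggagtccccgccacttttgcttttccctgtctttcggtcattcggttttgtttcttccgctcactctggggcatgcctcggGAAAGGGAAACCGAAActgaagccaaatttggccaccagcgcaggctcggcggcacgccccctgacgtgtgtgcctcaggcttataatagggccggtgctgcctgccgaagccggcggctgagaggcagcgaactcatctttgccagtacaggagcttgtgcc
IFI6, chr1:27672143-27672442, minus strand: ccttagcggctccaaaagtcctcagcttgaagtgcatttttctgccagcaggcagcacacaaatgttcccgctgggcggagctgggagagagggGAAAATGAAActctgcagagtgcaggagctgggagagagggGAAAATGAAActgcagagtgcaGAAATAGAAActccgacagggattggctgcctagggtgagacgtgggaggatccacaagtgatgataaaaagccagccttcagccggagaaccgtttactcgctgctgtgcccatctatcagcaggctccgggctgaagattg
ISG20, chr15:88638766-88639065, plus strand: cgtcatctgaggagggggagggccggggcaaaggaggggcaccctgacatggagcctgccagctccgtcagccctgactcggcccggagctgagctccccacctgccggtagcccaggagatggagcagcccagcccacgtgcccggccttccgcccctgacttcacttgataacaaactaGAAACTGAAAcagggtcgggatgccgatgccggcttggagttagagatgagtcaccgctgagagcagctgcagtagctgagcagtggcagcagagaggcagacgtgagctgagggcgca
PLSCR1, chr3:146544546-146544845, minus strand: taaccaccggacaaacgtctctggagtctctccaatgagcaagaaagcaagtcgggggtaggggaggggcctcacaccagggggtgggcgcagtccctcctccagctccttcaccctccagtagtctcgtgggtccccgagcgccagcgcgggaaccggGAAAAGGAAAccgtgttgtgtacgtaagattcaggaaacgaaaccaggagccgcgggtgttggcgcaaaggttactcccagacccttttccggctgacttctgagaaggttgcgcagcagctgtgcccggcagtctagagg

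In IFIT1 the window held 2 cores, at positions -116 and -103 from the start site. In ISG15 the 2 cores overlapped, at -113 and -107. IFI6 held 3 cores, more than either, with a difference of 0.06. ISG20 and PLSCR1 held 1 core each, at -69 and -91. The other members with 3 cores in a window, IFIT5 and HERC5, were lower, with differences of -2.15 and -2.66. Whether the number of cores bears on the difference was not tested. Among lower members no core was found in the windows of UBE2L6, HERC6, CMPK2, SAMD9L and XAF1.

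Of the 48 members, 26 had at least 2 probe sets, and the 95 probe sets in all give a view of how far each gene value rests on its probes. Gene values came from an _s_at probe set in 11 members and from an _x_at one in 5. Among the lower members, IFIT5, ISG15, IFITM1 and DDX60 had _s_at probe sets alone. The 27 lower members had 19 further probe sets, of which 17 gave a negative difference and 12 were lower. Some differed little, such as the second of EPSTI1, at 3.69 in IGR37 and 3.84 in IGR39. In SAMD9, for example, the second probe set was at 4.85 in IGR37 and 8.52 in IGR39, and in RSAD2 it was at 3.58 in IGR37 and 6.90 in IGR39. Further probe sets of OAS2 and PARP9 gave small positive differences, 0.30 and 0.05, at levels under log2 6. Among the members within 2-fold, 4 of 25 further probe sets passed the limit. These were a probe set of GBP2, at 3.02 in IGR37 and 4.75 in IGR39, of OAS1, at 3.51 in IGR37 and 5.14 in IGR39, of SAMHD1, at 3.62 in IGR37 and 4.68 in IGR39, and of IFI16, at 8.15 in IGR37 and 7.0 in IGR39. IFI16 differed in the positive direction on all 3 of its probe sets, by 0.77 to 1.15. A probe set that names both IFITM2 and IFITM1, and so entered no gene value, was at 3.68 in IGR37 and 6.18 in IGR39.

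**Figure D3:**
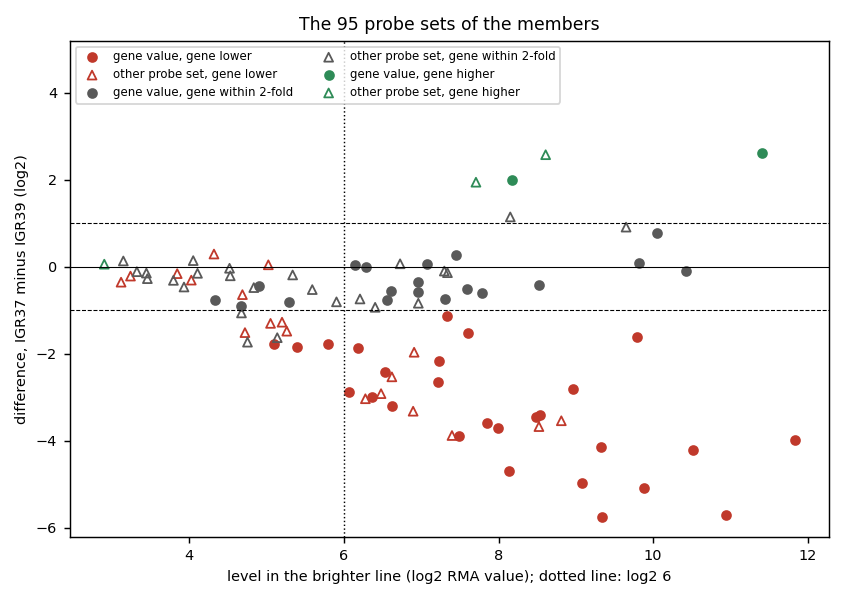
Difference between IGR37 and IGR39 on the log2 scale (vertical axis) against the level in the brighter line (horizontal axis, log2 RMA value) for the 95 probe sets of the members. Filled circles are the probe sets used as gene values and open triangles the others, and dashed lines mark 2-fold. The 19 red triangles, further probe sets of lower members, include 17 below 0 and 12 past the lower dashed line.

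Many members lie side by side in the genome, which allows them to be set beside their neighbours. In 11 clusters with 28 members, 20 members were lower and 0 were higher, with a median difference of -2.0. The 4 nearest measured genes on each side of these clusters, 88 in all, had a median difference of 0.04, and 7 of them (7.95%) were lower, beside 4.85% of all genes, and 10 were higher, beside 5.8%. Most of these flanking genes were under log2 6 in both lines, where RMA compresses differences. Their median therefore says little about expressed neighbours. The flanking genes also include the interferon-responsive GBP4 and GBP5. On chromosome 10 the 4 IFIT genes differed by -5.76 to -2.15, while LIPA before them was at 8.18 in IGR37 and 8.84 in IGR39. On chromosome 11 the IFITM genes differed by -4.22 to -2.41, and the flanking BET1L was at 6.43 in IGR37 and 6.14 in IGR39. GBP1 and GBP3 were lower, while RBMXL1, the nearest measured gene before GBP3, was at 6.32 in IGR37 and 5.10 in IGR39. KYAT3, beyond RBMXL1, was at 8.33 in IGR37 and 6.57 in IGR39. On the other side, past GBP2, GBP4 was at 3.62 in IGR37 and 3.8 in IGR39, and is itself a guanylate-binding protein gene. The 7 flanking genes that were lower were KIF20B, SIGIRR, CDK6, TFPI2, ABCG2, DNAJB4 and ADGRL2. Between SP110 and SP100, which lay within 2-fold, SP140L was at 4.50 in IGR37 and 6.88 in IGR39. Gene copy number was not measured here.

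**Figure D4:**
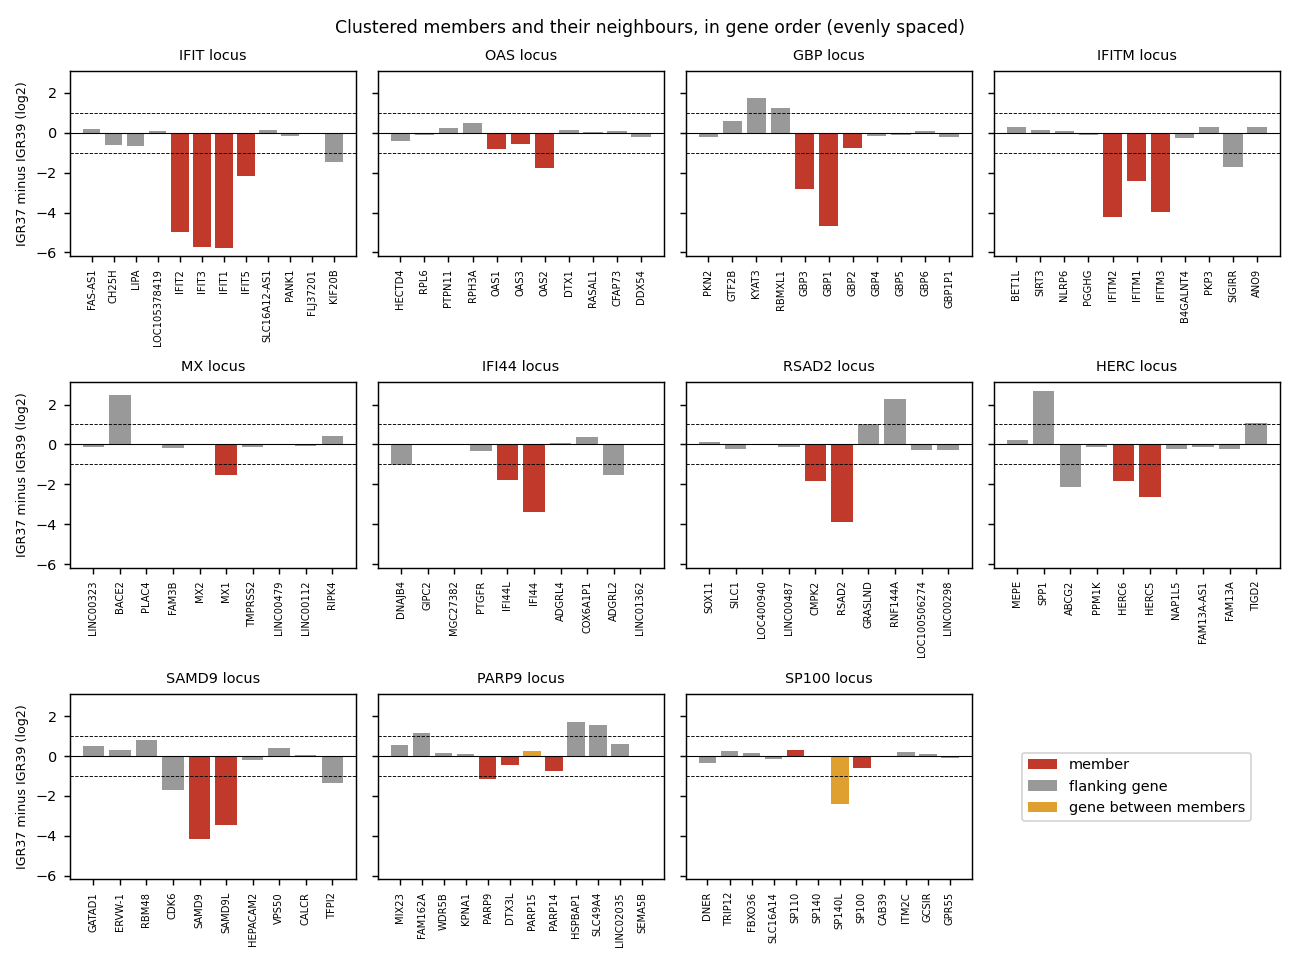
Difference between IGR37 and IGR39 on the log2 scale (vertical axes, bars from 0, dashed lines at 2-fold) for clustered members (red), genes between them (orange) and the 4 nearest measured genes on each side (grey), in gene order and evenly spaced. The red bars of the IFIT, IFITM, IFI44, RSAD2, HERC and SAMD9 clusters all pass the lower limit, while most grey bars lie within it.

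Among 75 further interferon-responsive genes with a value, outside the 48, 19 were lower in IGR37, beside 4.85% of all genes, and 4 were higher, beside 5.8%, with a median difference of -0.41. The largest difference was that of IDO1, an enzyme that breaks down tryptophan, at 3.95 in IGR37 and 8.28 in IGR39. NMI was at 4.86 in IGR37 and 8.28 in IGR39, and SECTM1 was at 4.61 in IGR37 and 7.01 in IGR39. PARP12 was at 3.78 in IGR37 and 6.09 in IGR39. These were lower, as were SP140L, ZNFX1, APOL1 and APOL6, with differences from -2.38 to -2.05. CASP1, the protease of inflammasomes, was higher, at 8.77 in IGR37 and 6.72 in IGR39. The other higher genes, GMPR, TMEM140 and PNPT1, differed by 1.03 to 1.75 and are named after their values were seen. B2M, the light chain of HLA class I, was at 12.45 in IGR37 and 12.86 in IGR39.

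In the pathway above the effectors, 5 of 30 genes were lower, beside 4.85% of all genes, and 1 was higher, beside 5.8%, with a median difference of -0.17. The transcription factor IRF1 was at 5.03 in IGR37 and 8.36 in IGR39, and IRF9, a DNA-binding factor of the interferon response, was at 5.26 in IGR37 and 7.30 in IGR39. The RNA sensor genes IFIH1, at 4.77 in IGR37 and 7.53 in IGR39, and RIGI, at 4.72 in IGR37 and 7.06 in IGR39, were lower as well. Other RNA sensor genes, TLR3 and DHX58, lay within 2-fold, at differences of -0.03 and -0.41, but both were under log2 6 in both lines. TLR3 was at 3.67 in IGR37 and 3.70 in IGR39, and DHX58 was at 5.47 in IGR37 and 5.87 in IGR39. STING1, a DNA-sensing adaptor, at 5.87 in IGR37 and 7.82 in IGR39, and IFNGR1, a receptor chain for interferon gamma, at 8.58 in IGR37 and 6.92 in IGR39, complete these counts and are likewise named after their values were seen. The genes of the type I interferon receptor lay within 2-fold by their brightest probe sets. IFNAR1 was under log2 6 in both lines, at 5.64 in IGR37 and 5.40 in IGR39. IFNAR2 was at 7.30 in IGR37 and 6.79 in IGR39. A further IFNAR2 probe set passed the limit, higher in IGR37, at 5.82 in IGR37 and 4.80 in IGR39. In other pathway genes within 2-fold by their brightest probe sets, further ones passed the limit in the lower direction. These were probe sets of IFNLR1, at 3.33 in IGR37 and 6.02 in IGR39, and of SOCS1, at 4.37 in IGR37 and 5.74 in IGR39. A MAVS probe set did so too, at 6.45 in IGR37 and 7.49 in IGR39. All of these were named after their values were seen. The kinase gene JAK1 was at 8.83 in IGR37 and 8.92 in IGR39. None of 18 interferon genes reached log2 6 in either line, and IFNB1 was at 3.43 in IGR37 and 3.85 in IGR39.

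**Figure D5:**
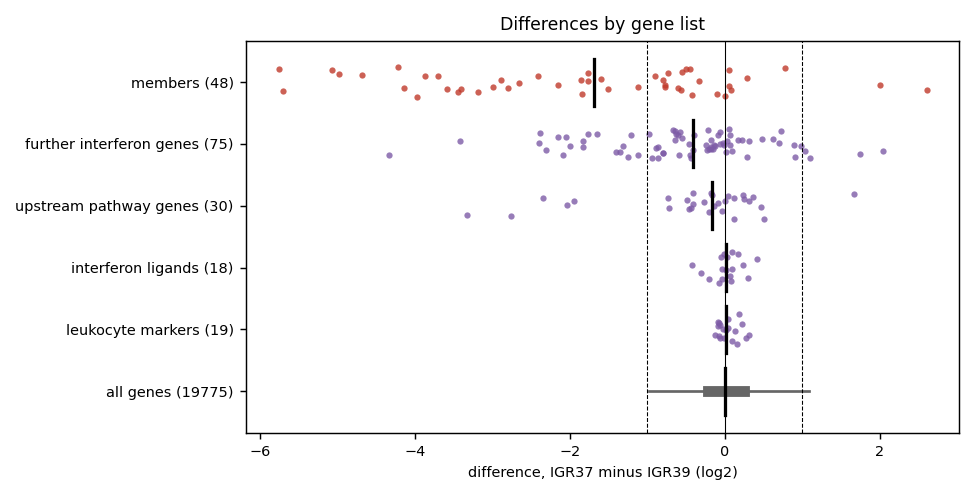
Difference between IGR37 and IGR39 on the log2 scale for each gene (points) of 5 lists, with the number of genes in brackets and black bars at the medians. For all 19775 genes the thick grey bar spans the 25th to 75th percentile of the differences and the thin one the 5th to 95th percentile; the members reach farthest to the left, while interferon ligands and leukocyte markers lie close to 0.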

How the data were processed

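Total RNA of 2 melanoma lines was hybridised to 1 Affymetrix array each. The deposited values are log2 levels per probe set that the authors computed by RMA using affy, per the submitters' processing notes. Which versions were used, and which arrays were normalised together, is not given in the sources used here. RMA subtracts a modelled background, gives arrays the same distribution and summarises probes, so an overall difference in brightness is removed.

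Of 54675 probe sets, 41097 had 1 symbol in the platform annotation, updated through gene identifiers to RefSeq GRCh38.p14 (41043 matched). Each gene took its brightest probe set by the mean of the 2 arrays. Differences of at least 1 in size (2-fold) were counted, with no minimum level, over members and over all genes. With 1 array per line no p-value was computed, and nothing separates the line from its culture or its array. Roles, lists and limits were chosen with earlier results of these data known. All members were named, as were listed genes with differences of at least 2 in size, at most 10 per list. Also named were 1 high-level gene within 2-fold from each list and the type I receptor, IRF9 and IFNB1 genes. Neighbours follow the RefSeq gene order. The counting was tested on simulated data. Python 3.11.15 was used with pandas 2.3.3 and numpy 2.4.6 for tables, statsmodels 0.14.6 for lowess and matplotlib 3.10.9 for plots.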

Additional observations from a re-analysis of the deposited data

How the results depend on the processing

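There were 7 alternatives: the mean over all probe sets, no probe sets ending in _x_at or _s_at, a minimum of log2 6 in the brighter array, a minimum mean of log2 5, a lowess correction of the trend with level (span 0.3), and centring either on array medians or on housekeeping genes. Across them, 20 to 28 members were lower, out of 38 to 48 with a value, and the median difference ran from -1.86 to -1.38. Without _x_at and _s_at probe sets, 38 members kept a value, 1 rather than 2 was higher, since PLSCR1 then rested on a dim probe set at 2.90 in IGR37 and 2.84 in IGR39, PARP9 changed sign to 0.0479, and 10 of 58 further interferon genes were lower. Centring on housekeeping genes shifted all differences by -0.12, after which 2 further interferon genes were higher and 1 more member, IFI27, was lower. Averaging probe sets put GBP2 and OAS1 past the lower limit and took OAS2 and PARP9 back within it. It moved 14 of the 48 members by more than 0.40, the pooled SD between probe sets of a gene that reached log2 6. Among these the difference became -4.62 for IFIT3, -3.75 for IFIT2, -2.77 for OASL, -2.61 for GBP1 and SAMD9L, -1.60 for XAF1, -1.57 for EPSTI1, -1.03 for HERC6, -0.70 for OAS2 and -0.54 for PARP9. No paired analysis was possible because each line has 1 array.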
